A study of Mus musculus with 68 samples.

Results

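The 40 genes described here encode the machinery by which a cell copies its DNA and divides, and all 40 were found by symbol among 23872 genes with a value in every RNA-seq library. They were split into 11 replication genes (Mcm2 to Mcm7, Rrm1, Rrm2, Pcna, Tyms and Tk1) and 29 genes counted here as mitosis genes, among which E2f1 and Ccne1 act at entry into S phase. All 40 passed the filter on low counts, as did 17377 genes in all, and the lowest level of any of them in any library was 0.555 CPM (the count scaled to a library of 1000000 counts), from 11 reads of Ccne1. The study measured lung RNA of male wild-type C57BL/6J and CAST/EiJ mice from The Jackson Laboratory. The mice breathed clean air or 1,3-butadiene (BD), a volatile industrial chemical and known carcinogen, for 6 h a day on weekdays over 2 weeks. C57BL/6J is a classical laboratory strain and CAST/EiJ a wild-derived inbred strain of another mouse subspecies, and no source used here gave the age of the mice. The RNA-seq libraries used were 5 of C57BL/6J in clean air, 6 of C57BL/6J under BD, 7 of CAST/EiJ in clean air and 5 of CAST/EiJ under BD.

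Most cells of the adult lung are not dividing, so the transcripts of these genes in whole lung may come in large part from a small proliferating fraction. The cells that they came from were not measured. E2F transcription factors, held back in resting cells by the RB family, switch on replication genes at the G1/S boundary, and a later wave of mitotic genes is switched on in G2 by MuvB complexes with B-MYB and FOXM1. In resting cells the same genes are repressed by the MuvB core within the DREAM complex, which contacts a short promoter element known as the cell cycle homology region (CHR). In RNA from whole tissue, fewer dividing cells and less RNA per dividing cell cannot be told apart.

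To show where these elements lie, the RefSeq promoter windows (assembly GRCm38.p6, 250 bases before to 50 after a transcription start site) were searched on both strands for the CHR (TTTGAA or TTCGAA), an E2F site (TTTCCCGC, TTTCGCGC, TTTGGCGC or TTTGCCGC) and the CCAAT box bound by NF-Y (CCAAT). None of these motifs contains another. Windows were matched for 34 of the 40 genes, all but Ccna2, Aurkb, Kif20a, Tpx2, Mcm4 and Foxm1. The CHR letters were found in 17 of 24 mitosis genes (70.8%), in 2 of 10 replication genes (20%) and in 19.4% of all 27025 genes with a window of the same length. E2F letters were found in 4 of 10 replication genes (40%), in 1 of 24 mitosis genes (4.17%) and in 2.32% of all genes. The CCAAT letters were found in 8 of 10 replication genes, in 19 of 24 mitosis genes (79.2%) and in 37.9% of all genes. CHR letters were in 7 of 14 genes called higher under BD in C57BL/6J (below) and in 12 of 20 not called. E2F letters were in 3 of 14 and 2 of 20, and CCAAT letters in 11 of 14 and 16 of 20. A match of letters is a description of the window and not evidence of binding.

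The windows below belong to the 4 genes with the smallest adjusted p under BD in C57BL/6J and to Mcm2. Mcm2 was 1 of 3 genes that passed the test of the difference between the BD responses of the strains. Each run is written 5′ to 3′ on the strand of the gene, from 250 bases before the start site to 30 after it, and capitals mark the letters of the 3 motifs. Gtse1 lies on the plus strand at chr15:85859457-85859736, Rrm1 on the plus strand at chr7:102441445-102441724 and Prc1 on the plus strand at chr7:80294201-80294480. Cdk1 lies on the minus strand at chr10:69352883-69353162 and Mcm2 on the minus strand at chr6:88898751-88899030.
Gtse1: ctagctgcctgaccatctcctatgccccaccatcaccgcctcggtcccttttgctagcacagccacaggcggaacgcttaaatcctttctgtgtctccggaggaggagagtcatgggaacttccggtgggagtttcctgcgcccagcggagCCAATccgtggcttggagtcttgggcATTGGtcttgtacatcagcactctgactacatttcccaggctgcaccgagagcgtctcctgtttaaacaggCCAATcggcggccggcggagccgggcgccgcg
Rrm1: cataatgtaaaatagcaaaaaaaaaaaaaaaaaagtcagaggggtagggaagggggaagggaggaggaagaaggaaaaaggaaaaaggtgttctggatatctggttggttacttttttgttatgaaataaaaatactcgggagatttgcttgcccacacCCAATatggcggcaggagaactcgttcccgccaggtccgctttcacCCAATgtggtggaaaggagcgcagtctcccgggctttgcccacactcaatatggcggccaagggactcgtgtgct
Prc1: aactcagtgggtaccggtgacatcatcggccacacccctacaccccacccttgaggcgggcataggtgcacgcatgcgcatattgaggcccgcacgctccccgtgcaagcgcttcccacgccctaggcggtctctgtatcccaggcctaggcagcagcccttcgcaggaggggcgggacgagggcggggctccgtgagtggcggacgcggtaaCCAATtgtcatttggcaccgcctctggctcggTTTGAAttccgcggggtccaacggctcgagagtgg
Cdk1: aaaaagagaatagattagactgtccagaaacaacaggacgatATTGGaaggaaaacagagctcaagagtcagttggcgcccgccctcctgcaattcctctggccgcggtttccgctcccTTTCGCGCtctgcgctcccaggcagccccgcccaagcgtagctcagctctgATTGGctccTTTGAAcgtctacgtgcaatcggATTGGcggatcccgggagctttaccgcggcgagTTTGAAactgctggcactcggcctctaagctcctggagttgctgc
Mcm2: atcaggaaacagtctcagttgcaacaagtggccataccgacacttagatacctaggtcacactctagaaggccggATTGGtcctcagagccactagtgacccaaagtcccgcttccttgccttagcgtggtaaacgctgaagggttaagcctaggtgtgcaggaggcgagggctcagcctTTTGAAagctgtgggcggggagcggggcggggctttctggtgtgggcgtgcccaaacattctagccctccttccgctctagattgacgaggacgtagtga
In Prc1 the CHR letters start 5 bases before the start site, and in Cdk1 they start at -71 and again at -15. Cdk1 holds 3 CCAAT boxes on the opposite strand and the E2F letters TTTCGCGC at -131. Mcm2 holds TTTGAA at -70. Gtse1 and Rrm1 hold CCAAT boxes only, at -99, -73 (opposite strand) and -2 in Gtse1 and at -91 and -45 in Rrm1. Where a gene has more than 1 listed window, the first was used.

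The libraries held about 10598000 to 50001600 counts, and the summed level of 7 alveolar type 2 cell markers was 16270 to 30222 CPM and that of 3 club cell markers 4049 to 11018 CPM, with none at 0. Title number 8, by its label a BD library of CAST/EiJ, was left out because its RNA went against that strain label. Pttg1, which encodes securin, was at 31.4 CPM in it, against 2.74 to 4.62 CPM in the 12 other CAST/EiJ libraries and 27.7 to 39.0 CPM in the 11 C57BL/6J libraries. A series of title numbers above 100 held 5 of 7 clean-air CAST/EiJ libraries, 1 of 5 clean-air C57BL/6J libraries and no BD library, so within CAST/EiJ it was nearly the same division as exposure. In clean-air CAST/EiJ the mean log2 level of the mitosis genes was 1.99 ± 0.16 (SD, n = 5) in these libraries and 2.35 ± 0.17 (SD, n = 2) in numbers 1 and 2, and that of the replication genes was 4.41 and 4.42. CAST/EiJ BD replicate 3, the deepest library, had the lowest mitosis level of its group, 1.91 against 2.38 to 2.65 in the other 4. The labels do not say that the libraries of a group came from separate animals, so p-values measure the spread between these libraries, which may be technical.

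Under BD, proliferation genes rose in the lung of C57BL/6J mice. Of the 40 genes 18 rose and none fell at an adjusted p of 0.05, where 4.20% of all genes tested rose and 6.49% fell (edgeR quasi-likelihood test with Benjamini-Hochberg adjustment over all genes, as for every adjusted p here). The 18 were 5 replication genes (Mcm2, Mcm5, Mcm7, Rrm1 and Tyms) and 13 mitosis genes (Ccna2, Ccnb2, Cdk1, Aurka, Aurkb, Kif20a, Cenpe, Cenpf, Prc1, Birc5, Nusap1, Tpx2 and Gtse1). The fold was above 1 in 38 of 40 genes (95%, against 49.5% of all genes), with Tk1 and Ccne1 the exceptions. The median log2 fold was 0.26 for the replication genes and 0.50 for the mitosis genes, beside -0.002 for all genes tested. In 18 of the 40 genes every BD library lay above every clean-air library, which held for 3.79% of all genes.

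**Figure D1:**
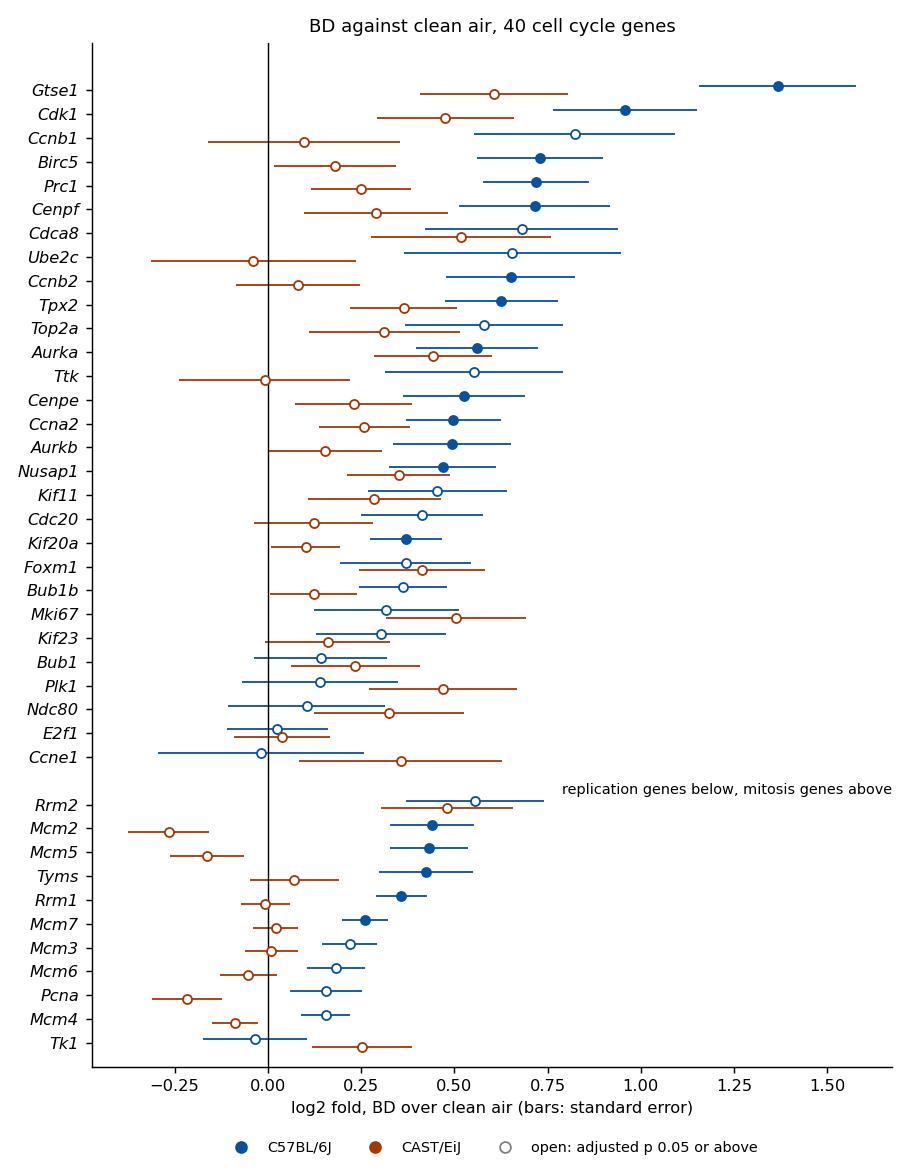
Log2 fold of BD over clean air for the 40 genes (x axis, bars are standard errors) in C57BL/6J (blue) and CAST/EiJ (brown), with replication genes in the lower block and mitosis genes in the upper one. Filled points mark the genes with an adjusted p under 0.05, which are 18 in C57BL/6J and none in CAST/EiJ.

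The mean level of each set by library shows the same groups. The mean log2 level of the 11 replication genes was 4.15, 4.21, 4.01, 4.21 and 4.08 in the 5 clean-air C57BL/6J libraries and 4.34 to 4.53 (median 4.41) in the 6 BD libraries, with no overlap. That of the 29 mitosis genes was 2.35, 2.11, 1.84, 2.21 and 2.05 in clean air and 2.55 to 2.80 (median 2.60) under BD, again with no overlap. In CAST/EiJ the replication level was 4.34 to 4.54 (median 4.39) in clean air and 4.56, 4.39, 4.26, 4.44 and 4.40 under BD. The mitosis level in CAST/EiJ was 1.75 to 2.47 (median 2.13) in clean air and 2.49, 2.38, 1.91, 2.65 and 2.38 under BD. In CAST/EiJ both sets overlapped between exposures, and the replication level of clean-air CAST/EiJ covered nearly the same range as that of C57BL/6J under BD.

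**Figure D2:**
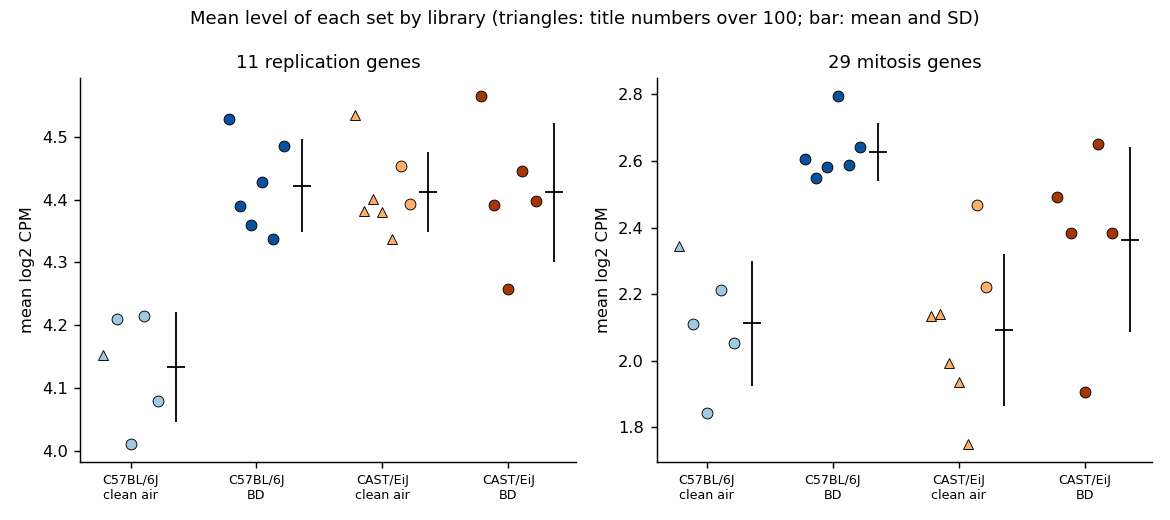
Mean log2 CPM of the 11 replication genes (left) and the 29 mitosis genes (right) in each library, by strain and exposure, with triangles for title numbers over 100 and a bar for the mean and SD of each group. Clean-air C57BL/6J is lowest for replication genes, at 4.01 to 4.21, and C57BL/6J under BD is tightest for mitosis genes, at 2.55 to 2.80.

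The MCM genes encode the 6 subunits of the helicase that unwinds DNA at replication origins. Mcm2 was at 16.6, 16.8, 13.9, 15.2 and 14.1 CPM in clean-air C57BL/6J and at 18.9 to 24.3 CPM (median 20.6) under BD. Every BD library was above every clean-air library, and Mcm2 rose by a log2 fold of 0.44 ± 0.11 (SE; adjusted p = 0.0135). Mcm5 was at 12.9, 14.2, 12.5, 12.9 and 11 CPM in clean air and at 14.9 to 20.4 CPM (median 16.6) under BD, with no overlap, and rose by 0.43 ± 0.10 (adjusted p = 0.00993). Mcm7 had the smallest fold of the 3 subunits that rose, 1.20, from 24.9 ± 0.93 CPM (SD, n = 5) to 29.8 ± 1.16 CPM (SD, n = 6; adjusted p = 0.00837). The log2 folds of Mcm3 (0.22, adjusted p = 0.0583), Mcm6 (0.18, adjusted p = 0.147) and Mcm4 (0.15, adjusted p = 0.133) did not pass.

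The other 5 replication genes supply deoxynucleotides or clamp the polymerase to DNA. Rrm1, the large subunit of ribonucleotide reductase, was at 41.8, 41.7, 35.9, 38.1 and 38.1 CPM in clean-air C57BL/6J and at 48.3 to 53.4 CPM (median 49.5) under BD. The groups did not overlap, and the rise was 1.28-fold (log2 fold 0.36 ± 0.07, adjusted p = 0.00179). Tyms, thymidylate synthase, rose 1.34-fold from 6.50 ± 1.26 CPM (SD, n = 5) to 8.76 ± 0.96 CPM (SD, n = 6; adjusted p = 0.0321), with the ranges overlapping by 1 clean-air library at 7.71 CPM. Rrm2, the small subunit whose level follows S phase, had a fold of 1.47 that missed the threshold (adjusted p = 0.0564). Pcna, the sliding clamp, was at 54.7, 38.4, 38.7, 41.6 and 39.3 CPM in clean air and at 41.6 to 52.8 CPM (median 47.4) under BD, so that 1 clean-air library lay above every BD library. That library was replicate 1, the only one of its group with a title number over 100. Pcna did not pass (log2 fold 0.16, adjusted p = 0.34) and passed without that library (log2 fold 0.27). Tk1, the thymidine kinase of S phase, had a mean of 7.22 ± 1.22 CPM (SD, n = 5) without and 7.01 ± 0.77 CPM (SD, n = 6) with exposure (adjusted p = 0.929).

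Among the cyclins and regulators of mitotic entry, Cdk1, the kinase that drives cells into mitosis, was at 4.68, 2.32, 2.20, 2.71 and 3.14 CPM in clean-air C57BL/6J and at 5.39 to 6.84 CPM (median 5.75) under BD. No clean-air library reached the BD range, and Cdk1 rose 1.94-fold (log2 fold 0.96 ± 0.19, adjusted p = 0.00302). Cyclins A and B are its partners. Ccna2 (cyclin A2) rose 1.41-fold from 10.2 ± 1.64 to 14.4 ± 1.48 CPM (SD; adjusted p = 0.0137), and Ccnb2 (cyclin B2) rose 1.57-fold from 3.09 ± 0.72 to 4.88 ± 0.94 CPM (SD; adjusted p = 0.0174). Ccnb1 (cyclin B1) had a fold of 1.77 and just missed the threshold (adjusted p = 0.0515). The transcription factors were not among the genes that rose: Foxm1 had a fold of 1.29 (adjusted p = 0.194), and E2f1 was at 4.22, 5.92, 6.89, 6.22 and 5.49 CPM in clean air and 5.02 to 6.74 CPM (median 5.72) under BD (fold 1.02, adjusted p = 0.949). Ccne1 (cyclin E1), which drives the G1/S transition, was at 1.14, 2.47, 1.93, 3.11 and 2.53 CPM in clean air and 1.84 to 2.70 CPM (median 2.09) under BD (adjusted p = 0.984).

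Of the 9 genes of mitotic kinases, the chromosomal passenger complex and the spindle checkpoint, 3 rose. Birc5, the survivin subunit of the chromosomal passenger complex, rose 1.66-fold from 1.76 ± 0.37 CPM (SD, n = 5) to 2.95 ± 0.47 CPM (SD, n = 6; adjusted p = 0.00744). Aurkb, the kinase of that complex, rose 1.41-fold (adjusted p = 0.0462), and Aurka, the spindle pole kinase, rose 1.48-fold (adjusted p = 0.0286). Bub1b, the checkpoint protein BubR1, was at 12.5, 12.9, 9.92, 12.5 and 13.6 CPM in clean air and 15.2 to 17 CPM (median 15.6) under BD. Its groups did not overlap, but its fold of 1.28 missed the threshold (adjusted p = 0.0518), as did that of Cdca8 (borealin), 1.60 (adjusted p = 0.0958), which did not overlap either. The remaining 4 did not pass: Ttk, the checkpoint kinase Mps1, had a fold of 1.47 (adjusted p = 0.149), Bub1 and Plk1 each had a fold of 1.10 (adjusted p = 0.703 and 0.755), and Ndc80, a kinetochore subunit, 1.07 (adjusted p = 0.833).

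The spindle and kinetochore group had the highest share of calls, 5 of 6. Gtse1, a microtubule-binding protein of G2 and S phase that also restrains p53, was at 1.41, 1.12, 1.10, 1.15 and 1.26 CPM in clean-air C57BL/6J and at 1.97 to 3.90 CPM (median 3.38) under BD. Every BD library was above every clean-air library, and the rise of 2.58-fold was the highest of the 40 genes (log2 fold 1.37 ± 0.21, adjusted p = 0.000276). Cenpf, a kinetochore protein of G2, rose 1.64-fold from 7.21 ± 2.23 CPM (SD, n = 5) to 12 ± 1.44 CPM (SD, n = 6; adjusted p = 0.024). Tpx2, which activates Aurora A on the spindle, rose 1.54-fold (adjusted p = 0.00968), Cenpe, a kinetochore motor, 1.44-fold (adjusted p = 0.0398) and Nusap1, a spindle-associated protein, 1.38-fold (adjusted p = 0.0381). Kif11, the Eg5 motor that separates spindle poles, had a fold of 1.37 and did not pass (adjusted p = 0.123).

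Genes of mitotic exit and cytokinesis rose in 2 of 5 cases. Prc1, which bundles microtubules of the central spindle, was at 8.32, 6.67, 4.87, 8.52 and 7.06 CPM in clean air and at 10.5 to 13.3 CPM (median 11.6) under BD, with no overlap, and rose 1.65-fold (log2 fold 0.72 ± 0.14, adjusted p = 0.00243). Kif20a, a kinesin of cytokinesis, rose 1.29-fold (adjusted p = 0.0162). Cdc20, an activator of the anaphase-promoting complex (fold 1.33, adjusted p = 0.11), Ube2c, its ubiquitin-conjugating enzyme (fold 1.58, adjusted p = 0.16), and Kif23 (fold 1.23, adjusted p = 0.299) did not pass. The 2 genes most often used as proliferation markers did not pass either. Mki67, which encodes the Ki-67 antigen, was at 46.5, 39.3, 28.7, 46.7 and 34.7 CPM in clean air and at 43.5 to 58.5 CPM (median 47.3) under BD, with 2 clean-air libraries inside the BD range (log2 fold 0.32, adjusted p = 0.34). Top2a, DNA topoisomerase II alpha, was at 36.3, 24.6, 14.8, 27.1 and 22.6 CPM in clean air and at 30.4 to 43.4 CPM (median 37.7) under BD, with 1 clean-air library inside it (fold 1.49, adjusted p = 0.0819).

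**Figure D3:**
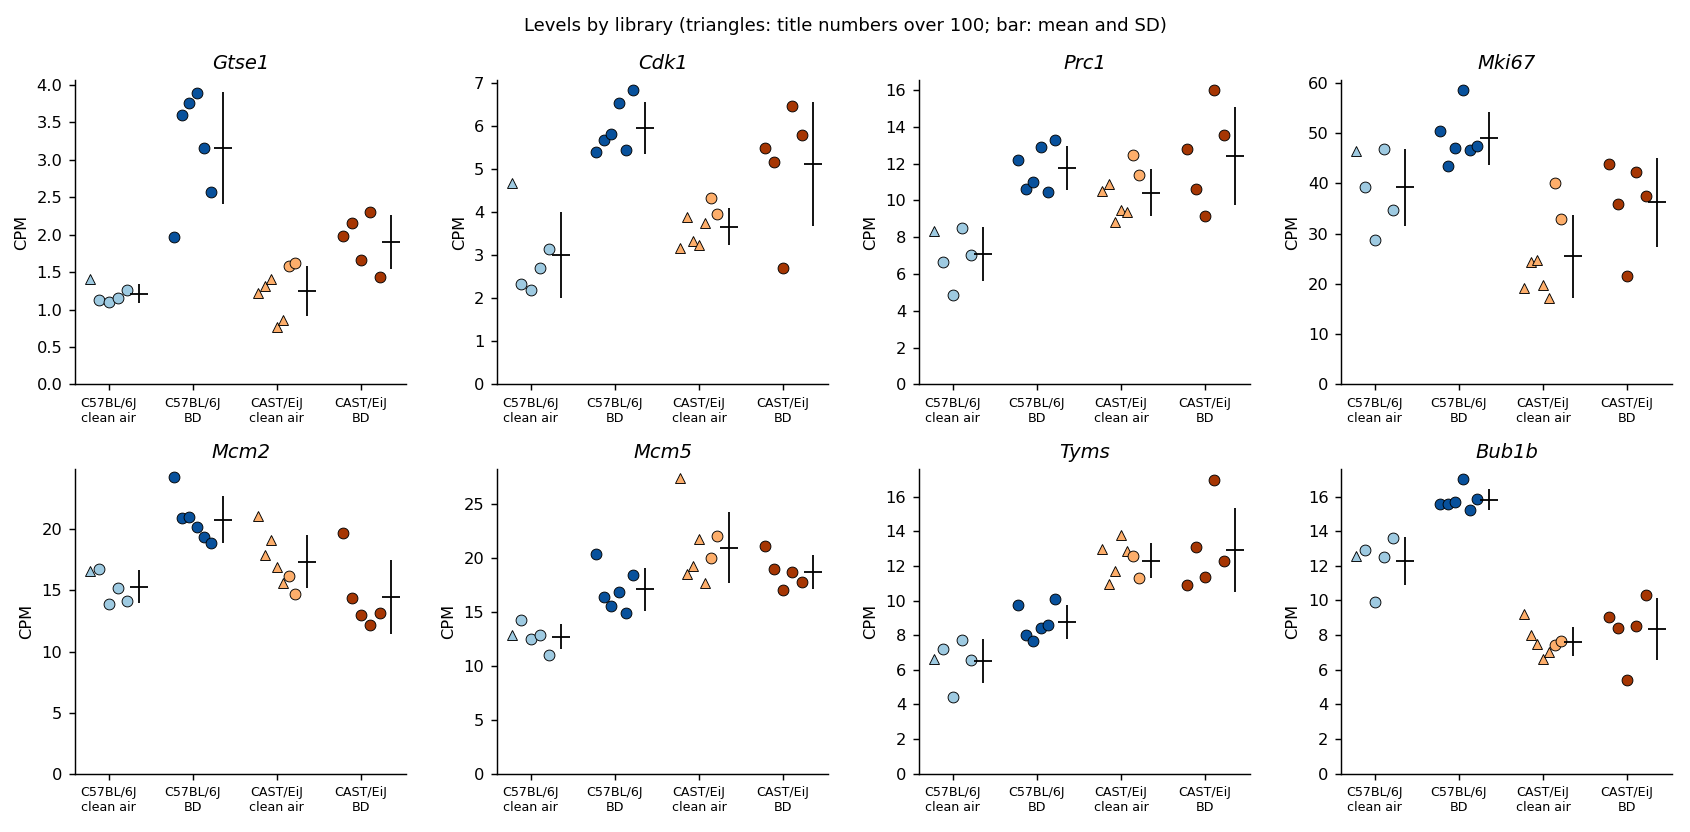
Level in CPM of 8 of the genes in each library, by strain and exposure, on axes that start at 0, with triangles for title numbers over 100 and a bar for the mean and SD of each group. Gtse1, Cdk1, Prc1 and Mcm2 do not overlap between clean air and BD in C57BL/6J, whereas Mki67 does, and Tyms is higher and Bub1b lower in every CAST/EiJ library than in any C57BL/6J library of the same exposure.

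Some of the C57BL/6J calls depended on single libraries. Without clean-air replicate 3, the shallowest library (10598000 counts) and the lowest of clean-air C57BL/6J in both sets, 9 of the 18 still passed: Mcm2, Mcm5, Mcm7, Rrm1, Cdk1, Prc1, Birc5, Tpx2 and Gtse1, which also passed on leaving out any other 1 of the 23 libraries. Ccna2 and Kif20a lost their calls only without that library, and Ccnb2 also without clean-air replicates 4 or 5. Aurka lost its call without clean-air replicates 3 or 4 or BD replicates 4 or 6, and Cenpf without clean-air replicates 2 to 5 or BD replicate 4. Tyms lost its call on leaving out any 1 of 6 libraries (clean-air replicates 3 and 5, BD replicates 1, 4, 5 and 6; adjusted p up to 0.11). Cenpe lost it for 7 (clean-air replicates 2, 3 and 5, BD replicates 2 to 5; up to 0.111), and Nusap1 for 8 (clean-air replicates 2, 3 and 5, BD replicates 1, 2, 4, 5 and 6; up to 0.129). Aurkb lost it for 14: clean-air replicates 2, 3 and 5 and all 6 BD replicates of C57BL/6J, and in CAST/EiJ clean-air replicates 2 and 3 and BD replicates 1, 2 and 6 (adjusted p up to 0.122).

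RNA of other cell types moved with exposure in C57BL/6J. Of 8 B cell markers 7 fell, and their summed level went from 167 to 316 CPM in clean air to 58.7 to 158 CPM under BD. Of 7 T cell markers 3 fell (Cd3e, Cd8a and Lck), with sums of 32.6 to 54.6 and 18.8 to 36.9 CPM. Of 4 tested germinal centre B cell markers 1 fell (Bcl6), with sums of 69.4 to 91.2 and 62.5 to 71.6 CPM. Of 6 alveolar macrophage markers 1 rose (Marco), with sums of 620 to 816 and 829 to 1102 CPM. Of 6 endothelial markers 2 fell (Cdh5 and Kdr), with sums of 3135 to 3408 and 2419 to 3086 CPM, and of 7 alveolar type 2 markers 1 rose (Sftpc) and 1 fell (Etv5), with sums of 16270 to 19404 and 19322 to 23268 CPM. None of these markers was at 0 throughout either group, and their part in the rise of the proliferation genes was not tested. Basal and squamous markers stood high in 1 clean-air and 3 BD libraries of C57BL/6J, and without those 4 libraries and the 7 such libraries of CAST/EiJ 17 of the 40 genes rose, 13 of them among the 18. Mcm7 lost its call there (adjusted p = 0.075, the highest over its alternatives, from 0.000509), as did Tyms, Aurka, Aurkb and Nusap1.

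In CAST/EiJ no gene of the 40 passed in either direction under BD, where 3.86% of all genes rose and 3.37% fell (edgeR). At an unadjusted p under 0.05 there were 13 of 40, beside 4893 of 17377 genes, and DESeq2 called 1, Mki67. In no gene did every BD library lie above every clean-air library, against 1.23% of all genes. The median log2 fold was -0.01 for the replication genes and 0.26 for the mitosis genes, beside -0.02 for all genes tested. Without BD replicate 4 it was 0.16 for the mitosis genes. The fold was above 1 in 27 of 29 mitosis genes and in 5 of 11 replication genes (45.5%), beside 46.8% of all genes.

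Gtse1 had the highest fold in CAST/EiJ as well, 1.52, from 0.764 to 1.63 CPM (median 1.31) in clean air to 1.98, 2.16, 1.66, 2.30 and 1.43 CPM under BD, and just missed the threshold (adjusted p = 0.0589). Cdk1 was at 3.16 to 4.32 CPM (median 3.75) in clean air and at 5.50, 5.16, 2.70, 6.48 and 5.78 CPM under BD. In Cdk1, 4 of 5 BD libraries lay above every clean-air library and replicate 3 lay below them all, so that its fold of 1.39 did not pass (adjusted p = 0.0968). Mki67 was at 17.2 to 40 CPM (median 24.4) in clean air and at 43.9, 35.9, 21.5, 42.2 and 37.6 CPM under BD (fold 1.42, adjusted p = 0.0901). The 2 highest clean-air libraries, at 33.0 and 40 CPM, were title numbers 1 and 2. Plk1 (fold 1.38, adjusted p = 0.127), Rrm2 (fold 1.39, adjusted p = 0.0847) and Cdca8 (fold 1.43, adjusted p = 0.162) were likewise above 1 without passing.

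Among the replication genes of CAST/EiJ, 6 of 11 had a fold below 1, beside 9248 of 17377 genes tested. Mcm2 was at 14.7 to 21.1 CPM (median 16.9) in clean air and at 19.7, 14.4, 13, 12.2 and 13.1 CPM under BD, with 4 of 5 BD libraries below the clean-air range (log2 fold -0.27 ± 0.11 (SE), adjusted p = 0.115). Without BD replicate 1, the highest of them, Mcm2 passed as lower, at a log2 fold of -0.40. Pcna was at 41.8 to 58.3 CPM (median 54.8) in clean air and at 45.4, 44.6, 44.7, 44.8 and 45.3 CPM under BD, where the 2 lowest clean-air values, 41.8 and 44.4 CPM, were those of numbers 1 and 2 (log2 fold -0.22, adjusted p = 0.133). E2f1 was at 4.96 to 7.55 CPM (median 6.81) and at 8.39, 6.84, 5.89, 5.90 and 7.21 CPM (fold 1.03, adjusted p = 0.877), and Ccne1 was at 0.555 to 2.11 CPM (median 1.21) and at 1.47, 2.04, 1.39, 1.71 and 1.84 CPM (fold 1.28, adjusted p = 0.405). Top2a was at 17.3 to 31.8 CPM (median 22.0) and at 29.9, 28.9, 16.2, 43.0 and 25.7 CPM (fold 1.24, adjusted p = 0.315).

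The count of calls in CAST/EiJ changed when some single libraries were left out. Without clean-air replicates 6 or 7, which are title numbers 1 and 2, 7 and 3 genes passed, without BD replicate 3 there were 5, and without BD replicate 1 there was 1, Mcm2. The shares of all genes that passed in these fits are not given here, so these counts are not set against the table. When instead all clean-air numbers over 100 were left out, which leaves numbers 1 and 2 as the only clean-air CAST/EiJ libraries, none passed and the median log2 fold of the mitosis genes was 0.006. Exposure and title number can hardly be told apart in this strain. All 3 club cell markers fell under BD in CAST/EiJ, with sums of 7946 to 11018 CPM in clean air and 4049 to 7634 CPM under BD, while none of the B cell or T cell markers passed. The part of these markers in the values of the proliferation genes was not tested.

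Whether the strains responded differently was tested as the BD response in CAST/EiJ minus that in C57BL/6J. This difference was lower for 3 of the 40 genes and higher for none, where it was lower for 3.82% and higher for 5.62% of all genes. All 3 were replication genes: Mcm2 (log2 difference -0.71 ± 0.16 (SE), adjusted p = 0.0147), Mcm5 (-0.59 ± 0.14, adjusted p = 0.0199) and Rrm1 (-0.37 ± 0.09, adjusted p = 0.0242). In Rrm1 the CAST/EiJ libraries were at 41.2 to 51.0 CPM (median 46.4) in clean air and at 51.9, 42.7, 40.6, 48.7 and 45.0 CPM under BD, a fold of 0.995. In Mcm5 they were at 17.7 to 27.4 CPM (median 20) and at 21.1, 18.9, 17, 18.6 and 17.8 CPM, and all 12 lay above every clean-air C57BL/6J library.

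No mitosis gene passed this test, with Gtse1 nearest (log2 difference -0.76 ± 0.29 (SE), adjusted p = 0.0877). The median log2 difference was -0.24 for the replication genes and -0.26 for the mitosis genes, beside -0.02 for all genes. Without CAST/EiJ BD replicate 3 the mitosis median was -0.12. The 3 calls ended when the title number series was left out or made a covariate. The log2 differences were then -0.57 and -0.60 for Mcm2, -0.61 and -0.59 for Mcm5, and -0.26 and -0.28 for Rrm1. Rrm1 also lost its call without clean-air C57BL/6J replicates 3 or 4, and without clean-air C57BL/6J replicate 1 the count was 6.

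Between the strains in clean air, 8 of the 40 genes were higher and 5 lower in CAST/EiJ, where 29.4% of all genes were higher and 31.0% lower, so neither share stood above that of the table. The direction of the calls went by set: 7 of 11 replication genes were higher and none lower, while 1 of 29 mitosis genes was higher and 5 were lower. With or without a call, 10 of 11 replication genes had a fold above 1, beside 49.9% of all genes. The 29 mitosis genes as a set had no direction, with 15 folds above 1, 14 below and a median log2 fold of 0.04. This comparison shares its clean-air libraries with both BD responses, so it is no separate evidence on them. Reads of both strains were aligned to a C57BL/6J-derived build, and the effect of sequence differences of CAST/EiJ on its counts was not tested.

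Tyms had the largest fold among the 8 genes that were higher in CAST/EiJ. It was at 6.62, 7.20, 4.41, 7.71 and 6.58 CPM in C57BL/6J and at 11 to 13.8 CPM (median 12.6) in CAST/EiJ, with no overlap and a fold of 1.88 (log2 fold 0.91 ± 0.12 (SE), adjusted p = 1.27e-06). Mcm5 was 1.65-fold higher (log2 fold 0.72 ± 0.10, adjusted p = 2.34e-06). Mcm4 was at 35.4, 38.2, 33.0, 33.6 and 39.2 CPM in C57BL/6J and at 45.1 to 47.2 CPM (median 46.0) in CAST/EiJ, with no overlap and a fold of 1.28 (log2 fold 0.36 ± 0.06, adjusted p = 3.68e-05). Mcm3, Mcm7, Rrm1 and Pcna were higher by 1.14-, 1.13-, 1.17- and 1.23-fold with overlapping ranges (adjusted p = 0.0249, 0.0162, 0.00402 and 0.0093). Prc1 was the 1 mitosis gene that was higher, 1.46-fold, at 8.83 to 12.5 CPM (median 10.5) against 4.87 to 8.52 CPM (adjusted p = 0.00159).

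Bub1b had the smallest adjusted p of the 5 genes that were lower in CAST/EiJ, at 6.60 to 9.24 CPM (median 7.46) against 9.92 to 13.6 CPM in clean-air C57BL/6J, which is 1.62-fold lower with no overlap (log2 fold -0.69 ± 0.12 (SE), adjusted p = 1.87e-05). Mki67 was 1.54-fold lower (adjusted p = 0.00657), Ccne1 1.68-fold (adjusted p = 0.0206), Ccna2 by a log2 fold of -0.32 (adjusted p = 0.0303) and Cdc20 1.32-fold (adjusted p = 0.0349). The title numbers over 100 among the CAST/EiJ libraries were lowest for Mki67, at 17.2 to 24.7 CPM against 33.0 and 40 CPM in numbers 1 and 2. Without numbers over 100 the log2 fold of Mki67 was -0.04 in place of -0.63. Without them, which leaves 2 clean-air CAST/EiJ libraries, 11 of the 40 genes were higher and 1 lower. The share of all genes that passed in that fit is not given here, so this count is not read as a result about the 40 genes. The median log2 fold of the mitosis genes was 0.32 in place of 0.04. The 5 genes that passed both ways were Tyms, Mcm4, Mcm5, Prc1 and Bub1b. Mcm3 lost its call without clean-air C57BL/6J replicates 3 or 5, Ccne1 without replicate 4 of that group, and Ccna2 and Cdc20 without clean-air C57BL/6J replicates 1, 2 or 4 or clean-air CAST/EiJ replicates 3 or 4, Ccna2 also without replicate 7 and Cdc20 without replicate 5 of the latter group.

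**Figure D4:**
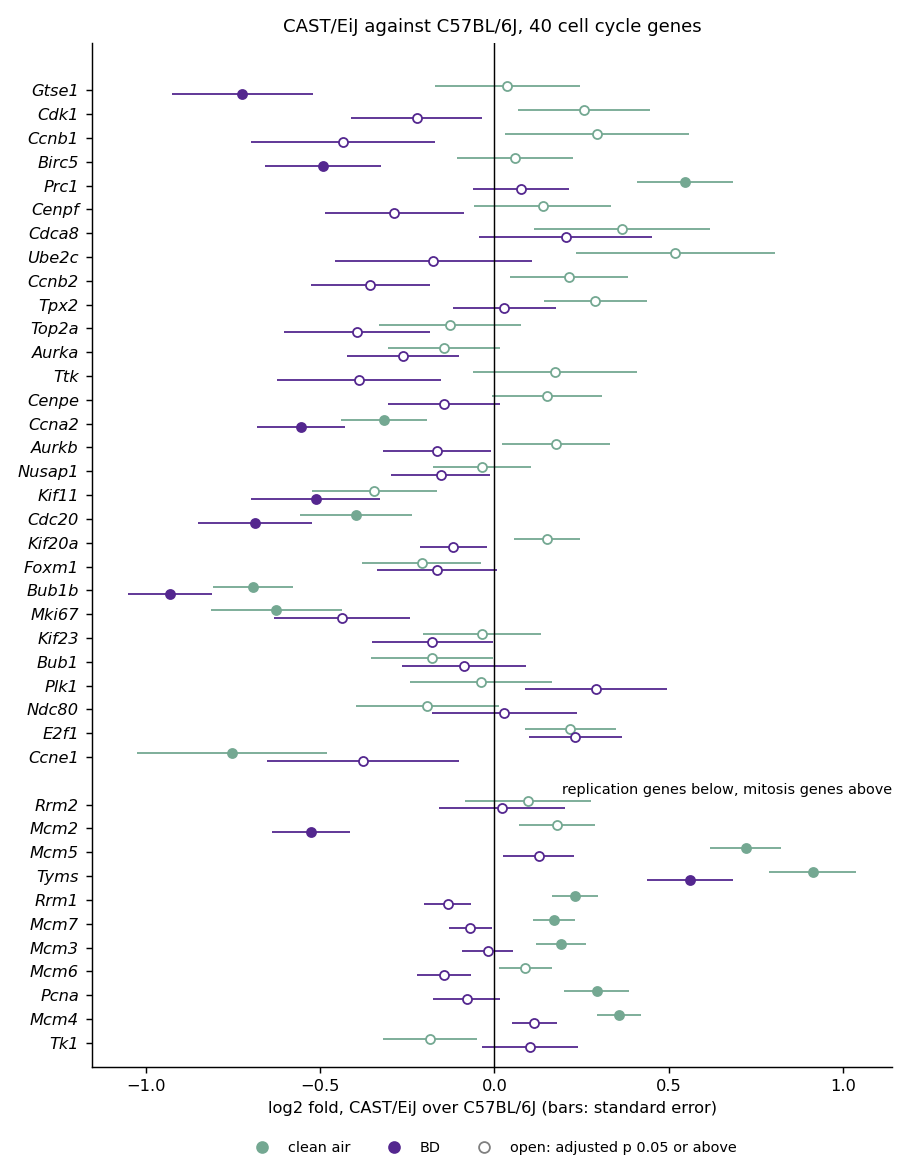
Log2 fold of CAST/EiJ over C57BL/6J for the 40 genes (x axis, bars are standard errors) in clean air (green) and under BD (purple), with replication genes in the lower block and mitosis genes in the upper one. Filled points passed an adjusted p of 0.05, with 8 higher and 5 lower in clean air and 1 higher and 7 lower under BD.

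Under BD, where no library has a title number over 100, 1 of the 40 genes was higher in CAST/EiJ and 7 were lower, against 20.4% higher and 22.3% lower in the whole table. Tyms was again higher, at 10.9, 13.1, 11.3, 17 and 12.3 CPM against 7.66 to 10.1 CPM (median 8.52) in C57BL/6J, with no overlap (1.47-fold, adjusted p = 0.00067). Bub1b was at 9.07, 8.40, 5.42, 8.54 and 10.3 CPM in CAST/EiJ and at 15.2 to 17 CPM in C57BL/6J, 1.91-fold lower with no overlap (log2 fold -0.93 ± 0.12 (SE), adjusted p = 9.74e-07). Bub1b and Tyms were therefore the members that differed between the strains in one direction under both exposures with no overlap in either. Ccna2, at 10.8, 9.75, 6.67, 12.1 and 9.87 CPM in CAST/EiJ and 12.2 to 16.3 CPM (median 14.9) in C57BL/6J, was 1.47-fold lower (adjusted p = 0.00099).

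Mcm2 was the 1 replication gene that was lower under BD, 1.44-fold (log2 fold -0.53 ± 0.11 (SE), adjusted p = 0.000494), although its highest CAST/EiJ library, at 19.7 CPM, lay inside the C57BL/6J range of 18.9 to 24.3 CPM. Cdc20 was 1.61-fold lower (adjusted p = 0.00149), Gtse1 1.65-fold (adjusted p = 0.00532), Birc5 1.40-fold (adjusted p = 0.0198) and Kif11 1.43-fold (adjusted p = 0.0278). The calls of Kif11 and Birc5 ended without C57BL/6J BD replicate 4 or CAST/EiJ BD replicate 3, and that of Kif11 also without C57BL/6J BD replicate 6 or CAST/EiJ BD replicate 6. The median log2 fold was -0.02 for the replication genes and -0.22 for the mitosis genes. Without CAST/EiJ BD replicate 3 the mitosis median was -0.10. Markers of other cell types also differed between the strains, and their part in these values was not tested. B cell markers were lower in CAST/EiJ for 8 of 8 genes in clean air and for none under BD, and T cell markers for 6 of 7 under both exposures. Club cell markers were lower for none of 3 in clean air and for 3 of 3 under BD. Of 6 alveolar macrophage markers 4 were higher and 2 lower in clean air, and 3 were higher and 2 lower under BD.

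Other genes of the same processes were counted from lists that hold none of the 40. Beside these counts, 4.20% of all genes tested rose under BD in C57BL/6J and 6.49% fell. Of 24 genes of origin licensing and firing, 3 rose under BD in C57BL/6J and none fell: Cdc6, which loads the MCM helicase (log2 fold 0.61, adjusted p = 0.0257), Dbf4, the activator of the origin-firing kinase (0.31, adjusted p = 0.0423), and Gins1 of the GINS complex (0.48, adjusted p = 0.0482). Of 28 genes of DNA polymerases and the replication fork, 5 rose and none fell. They included Rpa1, which coats single-stranded DNA, from 66.4 ± 1.78 CPM (SD, n = 5) to 76.9 ± 2.01 CPM (SD, n = 6; adjusted p = 0.00997), the primase subunit Prim2 (log2 fold 0.39, adjusted p = 0.0148) and the chromatin assembly factor Chaf1b (0.53, adjusted p = 0.0205). Of 61 further mitosis genes, 17 rose and 1 fell, led by Iqgap3 (log2 fold 1.15, adjusted p = 0.0016), the spindle protein Ckap2 (1.09, adjusted p = 0.00238) and Spc24, a partner of Ndc80 at the kinetochore (0.87, adjusted p = 0.00485). The mitosis gene that fell was Cdc25b, a phosphatase that activates Cdk1 (-0.45, adjusted p = 0.0148). Of 14 condensin and cohesin genes 2 rose, the cohesin acetyltransferase Esco2 (0.96, adjusted p = 0.00647) and Ncapg2 of condensin II (0.49, adjusted p = 0.0193).

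In CAST/EiJ the same lists held few calls under BD, where 3.86% of all genes rose and 3.37% fell. Of the origin genes 1 of 24 rose, of the fork genes 1 of 28 and of the further mitosis genes 2 of 61. Of the condensin and cohesin genes 1 of 14 rose, and 2 of the fork genes fell. These small counts are not read as a result about the lists. Orc1 of the origin recognition complex rose (log2 fold 0.79, adjusted p = 0.0416), as did Ccnf (cyclin F; 0.64, adjusted p = 0.0257), Sgol2, which protects centromeric cohesin (0.92, adjusted p = 0.028), Ncapd2 of condensin I (0.52, adjusted p = 0.0301) and Chaf1a (0.43, adjusted p = 0.0426). Rpa1 and Rpa3 fell (-0.17 and -0.44, adjusted p = 0.0394 and 0.0328). Rpa1 thus rose in C57BL/6J and fell in CAST/EiJ, and the difference of its responses passed (log2 difference -0.39 ± 0.07 (SE), adjusted p = 0.00897). The difference also passed for Rpa3 (-0.61, adjusted p = 0.0359), Spc24 (-1.22, adjusted p = 0.0144) and Anln, a cytokinesis scaffold (-0.74, adjusted p = 0.0147). It passed as well for Cks1b, a subunit of CDK complexes (-0.74, adjusted p = 0.0293), and Ncaph2 (-0.29, adjusted p = 0.0458). Whether these calls of the difference hold with the title number series left out or as a covariate was not tested. Within CAST/EiJ that series was nearly the same division as exposure.

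The strain difference stayed below 2-fold for all 40 genes in both exposures, and these lists held larger ones. Pttg1 was lower in CAST/EiJ by a log2 fold of -3.12 in clean air and -3.19 under BD, the citron kinase gene Cit by -2.10 and -1.50, and Nek2, a centrosomal kinase, by -1.94 and -2.12. Anln was higher by 1.94 and 1.19. The fork genes Pold1 (-0.97 and -1.33), Pola2 (-0.88 and -0.81) and Rfc2 (-0.41 and -0.73) were lower in both exposures, and Chaf1b (1.54 and 0.94), Pold3 (0.43 and 0.36) and Shmt1 (0.69 and 0.40) higher. Timeless, a fork protection gene, was lower by -1.32 and -1.38, Cdt1, the licensing factor, by -0.75 and -0.61, and Mcm8 was higher by 1.16 and 0.72. The adjusted p was at most 0.00105 (Cdt1 under BD) for all of these but Shmt1 under BD (0.00616).

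Upstream of replication, 25 genes of G1 cyclins, CDKs, E2F and RB factors did not move as a block under BD in C57BL/6J. Of these 25 genes 3 rose and 2 fell, where 4.20% and 6.49% of all genes did, and the median log2 fold was -0.01. The genes that rose were the E2F partner Tfdp1 (log2 fold 0.29, adjusted p = 0.0243) and the MuvB subunits Lin9 (0.39, adjusted p = 0.00742) and Lin54 (0.23, adjusted p = 0.0488). Mycn (-1.08, adjusted p = 0.0114) and Ccnd2, cyclin D2 (-0.33, adjusted p = 0.0453), fell. Ccnd1, cyclin D1, was at 241, 170, 174, 169 and 169 CPM in clean-air C57BL/6J and 155 to 187 CPM under BD (adjusted p = 0.443). In CAST/EiJ it was at 140 to 187 CPM (median 166) in clean air and at 125, 98.1, 112, 86.8 and 117 CPM under BD. These did not overlap, Ccnd1 fell (log2 fold -0.59 ± 0.10, adjusted p = 0.00229), and the difference between the strains passed (log2 difference -0.45 ± 0.14 (SE), adjusted p = 0.0472). Cdk6, a partner of cyclin D, rose in CAST/EiJ (0.41, adjusted p = 0.0354), and the difference of its responses passed in the other direction (0.58, adjusted p = 0.0332). Whether the calls of Ccnd1 and Cdk6 hold without the title number series was not tested. In clean-air CAST/EiJ replicates 6 and 7, outside that series, Ccnd1 was at 140 and 150 CPM. In the libraries of the series it was at 148 to 187 CPM.

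Genes that brake the cell cycle moved in both directions. Of 22 listed CDK inhibitors and p53-linked brakes, 21 were tested. Of these 6 rose and 3 fell under BD in C57BL/6J, beside 4.20% and 6.49% of all genes. Cdkn1a, which encodes the CDK inhibitor p21, was at 15.5, 7.57, 13, 7.66 and 10.8 CPM in clean air and at 10.2 to 31.3 CPM (median 28.5) under BD. Of the BD libraries 5 lay above every clean-air library, and Cdkn1a rose 2.26-fold (log2 fold 1.18 ± 0.26 (SE), adjusted p = 0.00625). Ccng1, the p53-induced cyclin G1, rose 1.32-fold (adjusted p = 0.0124), as did Plk3 (log2 fold 0.50, adjusted p = 0.00462) and Phlda3 (0.57, adjusted p = 0.00494), whereas the antiproliferative genes Btg1 and Btg2 and the kinase gene Plk2 each fell by 0.60 (adjusted p = 0.00067, 0.000937 and 0.00443).

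In CAST/EiJ Cdkn1a was at 18.7 to 36.2 CPM (median 24.4) in clean air and at 30.9, 24.9, 48.4, 27.8 and 35.0 CPM under BD, with overlapping ranges (fold 1.32, adjusted p = 0.282). Its strain difference in clean air was 2.31-fold with no overlap (adjusted p = 0.000351), and the difference of its BD responses did not pass (log2 difference -0.78 ± 0.35 (SE), adjusted p = 0.148). Of the same list 3 genes rose and 1 fell in CAST/EiJ, beside 3.86% and 3.37% of all genes. Plk3 (0.57, adjusted p = 0.00354), Mdm2, the ubiquitin ligase of p53 (0.28, adjusted p = 0.00669), and Zmat3, a p53 target (0.56, adjusted p = 0.00866), rose, and Cdkn2c, the CDK4 and CDK6 inhibitor p18, fell (-0.42, adjusted p = 0.0395).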

How the data were processed

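Lung RNA of male mice was sequenced from TruSeq libraries of total RNA, per the labels' protocols. The authors deposited a table of read counts per gene, which holds whole numbers and no normalization. Reads were aligned with GSNAP to mm9, per the submitters' processing notes. The counter, the annotation and the versions are not given in the sources used here. Samples were grouped by strain and exposure from their labels. Of 23893 entries 21 lacked a value in some library and were left out. Counts were tested with edgeR 4.0.16 (R 4.3.3, limma 3.58.1): filterByExpr, TMM scaling, robust quasi-likelihood fit of 4 group means over 23 libraries, Benjamini-Hochberg adjustment over 17377 genes, threshold 0.05. CPM are per TMM-scaled library, and log2 levels use a prior count of 2. No pair of 253 libraries agreed within sampling noise (smallest chi-square per degree of freedom 5.06).

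The 40 genes and all lists were chosen with earlier results of these data known. Values in every library are given for Mki67, Top2a, Cdk1, Mcm2, Pcna, E2f1, Ccne1 and the 4 genes with the smallest adjusted p among those that passed in each comparison. From each pathway list up to 3 genes per direction are named by smallest p, and Cdkn1a, Ccnd1 and Ccng1 always. Library number 8 was left out of every test. Alternatives were DESeq2 1.42.0, median-of-ratios scaling, no filter on low counts, the compared groups alone, library 8 kept, title numbers over 100 left out or as a covariate, and each library left out in turn. Leaving out libraries with squamous markers, and numbers over 100 together with CAST/EiJ BD replicate 3, was chosen after seeing the data. The fitting code was tested on simulated data. Promoter windows come from RefSeq (GRCm38.p6), a later build than mm9. ATAC-seq samples were not analysed here. One result on markers of another cell type is not reported here.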

Additional observations from a re-analysis of the deposited data

Results flagged for a closer look

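In 5 of 160 sets of values (40 genes in 4 groups), the highest library stood far from the rest of its group by Dixon's criterion, where chance gives about 1 in 20, or 8. Pcna was at 54.7 CPM in clean-air C57BL/6J replicate 1, the only one of its group with a title number over 100, with the next library at 41.6 CPM. Rrm2, the small subunit of ribonucleotide reductase, was at 5.81 CPM in clean-air C57BL/6J replicate 4, with the next at 4.27 CPM. Cenpe was at 11.7 CPM in clean-air CAST/EiJ replicate 6 (title number 1), with the next at 7.53 CPM. In C57BL/6J BD replicate 4, Bub1b was at 17 CPM and Cenpf at 14.7 CPM, with the next libraries at 15.9 and 12.1 CPM. The mean levels of the replication and mitosis sets held no such library in any of 8 groups.

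The test of the difference between the BD responses of the strains passed for 3 replication genes. The log2 differences (CAST/EiJ minus C57BL/6J) were -0.71 for Mcm2, -0.59 for Mcm5 and -0.37 for Rrm1. By the same test 3.82% of all genes were lower and 5.62% higher. The 3 calls ended when title numbers over 100 were left out or made a covariate. The library left out, labelled CAST/EiJ BD with title number 8, had a mean log2 level of the mitosis genes of 2.66, above the highest clean-air CAST/EiJ library at 2.47. This library lay within the range of C57BL/6J under BD, 2.55 to 2.80. Its Pttg1 and Nek2 levels, 31.4 and 12.5 CPM, lay within the C57BL/6J ranges.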

How the results depend on the processing

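No paired analysis was possible because replicate numbers were given in accession order and title numbers are not shared between groups. Depth limits the genes near 1 CPM, of which Cdca8 had 9 reads in 1 library. Of 944 alternative values for 31 gene-level results, 912 kept their side of the threshold, 15 no longer passed and 17 newly passed. None changed sign where either value passed. The 912 include changes of sign where neither value passed. Under BD in C57BL/6J, leaving out 1 library gave log2 folds of -0.20 to 0.13 for Ccne1 and -0.07 to 0.10 for E2f1. Of 454 alternative counts and set medians, 438 stayed within 1.5 times the reported count or within 1 SD of the reported median. The SD here is the pooled spread, within groups, of the mean log2 level of single libraries, 0.083 for the replication and 0.205 for the mitosis genes. It is not an error of the median and is wide beside mitosis medians such as 0.26. Within that SD, leaving out 1 library still moved mitosis medians by over 1.5 times: without CAST/EiJ BD replicate 3 from -0.26 to -0.12 for the difference of responses and from -0.22 to -0.10 for strain under BD, and without BD replicate 4 from 0.26 to 0.16 for BD in CAST/EiJ. Medians near 0 changed sign: -0.02 to 0.10 for mitosis genes by strain in clean air, -0.06 to 0.004 for replication genes under BD in CAST/EiJ and -0.07 to 0.03 by strain under BD. The other exceptions follow, and their cause was not tested beyond the change in samples that each names. With title numbers over 100 left out, the median log2 fold of the mitosis genes was 0.0060 for BD in CAST/EiJ, -0.56 for the difference of responses and 0.32 for strain in clean air, and 0 genes passed for the difference of responses. With these numbers as a covariate, 0 passed for the difference and 8 for strain in clean air. DESeq2 called 1 gene for BD in CAST/EiJ and 6 for the difference, and keeping library 8 gave 4 and 5. Leaving out 1 library gave 9 to 23 genes for BD in C57BL/6J, 0 to 7 for BD in CAST/EiJ and 2 to 6 for the difference. With numbers over 100 left out, clean-air CAST/EiJ holds 2 libraries. For the counts of genes that passed in any alternative fit, the share of all genes in that fit is not given here.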
